A study of Mus musculus with 6 samples.

Results

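Necroptosis is a lytic, inflammatory form of regulated cell death in which receptor-interacting kinases are joined into a complex that ends with the pore-forming pseudokinase MLKL at the plasma membrane. RIPK1 is the scaffold kinase below the TNF receptor, RIPK3 is the kinase that phosphorylates MLKL, and ZBP1 is a sensor of Z-form nucleic acids that binds RIPK3 without RIPK1. Caspase-8 cleaves RIPK1 and RIPK3 and so holds necroptosis back, and its catalytically inactive relative c-FLIP, encoded by Cflar, sets its activity. The inhibitor of apoptosis (IAP) proteins cIAP1 (Birc2) and cIAP2 (Birc3) attach ubiquitin to RIPK1, and XIAP binds and inhibits caspases. In macrophages these proteins stand close to the inflammasome, because loss of IAP or caspase-8 activity can lead LPS-primed cells to NLRP3 activation and IL-1β release.

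The 9 genes Ripk1, Ripk3, Mlkl, Zbp1, Casp8, Cflar, Birc2, Birc3 and Xiap were taken by name from the 54532 genes of the deposited table, and each name matched 1 row. All 9 had a mean FPKM (fragments per kilobase of gene, scaled to the size of the library) of at least 1 over the 6 libraries and were therefore among the 9794 genes tested. The RNA came from thioglycolate-elicited peritoneal macrophages of male wild-type C57BL/6J mice aged 6 to 8 weeks, and every group shared this source. Control cells were untreated. Model cells received LPS at 500 ng/mL for 5.5 h and then ATP at 2 mM for 0.5 h, the sequence that primes and then triggers the NLRP3 inflammasome. In MUS, cells were treated as in Model and 50 µM muscone, the macrocyclic ketone of musk, was added 5 h after LPS. Each group had 2 libraries of poly-A RNA. No source states that they came from separate mice or cultures, so p-values measure only the spread between these libraries, which may be technical.

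The fragments on genes, recovered from the FPKM values and the gene lengths, numbered 15526321 to 17135442 per library, and the 9 genes had between 115 (Zbp1 in Control replicate 1) and 27880 (Cflar in Model replicate 2). For a 1 kb gene with no fragment, the level could still be up to 0.131 to 0.213 FPKM (3 fragments), counting error only. The macrophage label was checked against 7 macrophage markers, all of which passed the FPKM filter, with a summed level of 9427 to 14122 FPKM per library. Most of this sum was Lyz2 (7275 to 12007 FPKM), while Itgam had 26.7 to 39.2 and Mertk 11.3 to 45.9. The summed level of each of 7 marker lists for other cells was at most 4.17 FPKM in any library. The T cell list summed to 0.0568 to 0.231 FPKM in Control, 1.45 to 3.15 in Model and 1.98 to 2.64 in MUS, of which Lck made up nearly all in the stimulated libraries, while Cd3d, Cd3e, Cd3g and Cd8a were at most 0.0974 FPKM in any library. The neutrophil list summed to 0.107 to 0.288 FPKM in Control, 1.11 to 1.61 in Model and 0.538 to 0.611 in MUS, nearly all of it Camp in the stimulated libraries, with Ly6g and Elane at 0 in all 6. Of the eosinophil markers, Siglecf had 1.23 to 4.06 FPKM, and Epx and Prg2 were at 0 in all 6 libraries. The part of other cells in the results was not tested. The Control libraries stood apart from each other most, with r = 0.924 between replicates over the genes tested against 0.944 in Model and 0.981 in MUS. In these bulk samples, a change in the share of cells of a type and a change in RNA per cell cannot be told apart.

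Positions are those of the table, which match the mouse build GRCm38. Cflar (ENSMUSG00000026031, chr1:58711508-58758884) and Casp8 (ENSMUSG00000026029, chr1:58795374-58847503) lie next to each other on the plus strand, 36489 bases apart with 0 coding genes between them. Birc3 (ENSMUSG00000032000, chr9:7848699-7873186) and Birc2 (ENSMUSG00000057367, chr9:7818227-7837064) form a second neighbouring pair on the minus strand, 11634 bases apart with 0 genes between them. Mlkl (ENSMUSG00000012519) lies on chr8:111311797-111338177, Zbp1 (ENSMUSG00000027514) on chr2:173206612-173218923 and Ripk3 (ENSMUSG00000022221) on chr14:55784995-55788865, all on the minus strand. Ripk1 (ENSMUSG00000021408, chr13:34002363-34037147) and Xiap (ENSMUSG00000025860, chrX:42059679-42109656) lie on the plus strand.

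Some of these rows overlap others, and the sources do not say that strand was used in counting, so reads in a shared stretch could not be assigned with certainty. The 5′ end of Ripk1 overlaps the antisense gene Serpinb6a, a serine protease inhibitor at 23.8 to 44.3 FPKM, over 432 bases. Ripk1 also holds the pseudogenes Gm17083 (0.156 to 4.39 FPKM) and Gm17084 (0 in all 6 libraries). Mlkl holds the pseudogene Gm45712 (0 to 1.10 FPKM), and Casp8 the unclassified transcript Gm37760 (0.0569 to 0.657 FPKM). Against the levels of Mlkl and Casp8, these overlapping rows were small in every library.

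The RefSeq promoter windows, 250 bases before to 50 bases after the transcription start on GRCm38.p6, held 8 of the 9 genes in 12 windows, and none for Zbp1. They are shown for the genes whose level in stimulated cells differed most from Control and for Ripk1, which was not called, because a window of each kind holds a match to an interferon motif. The Casp8 window (chr1:58802252-58802551) lies inside the Casp8 row, which begins at 58795374, so it does not describe the 5′ end of that row. Capitals mark a match to the interferon-stimulated response element (ISRE, GAAANNGAAA) or to the gamma-activated site (TTCNNNGAA), searched on both strands, and the last 50 bases follow the start.
Cflar, chr1:58711241-58711540, plus strand: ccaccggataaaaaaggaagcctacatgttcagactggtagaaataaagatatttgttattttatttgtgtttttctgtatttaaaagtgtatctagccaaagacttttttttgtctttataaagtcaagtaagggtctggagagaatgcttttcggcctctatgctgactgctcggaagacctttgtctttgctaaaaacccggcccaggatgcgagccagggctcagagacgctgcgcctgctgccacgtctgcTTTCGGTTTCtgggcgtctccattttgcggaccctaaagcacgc
Casp8, chr1:58802252-58802551, plus strand: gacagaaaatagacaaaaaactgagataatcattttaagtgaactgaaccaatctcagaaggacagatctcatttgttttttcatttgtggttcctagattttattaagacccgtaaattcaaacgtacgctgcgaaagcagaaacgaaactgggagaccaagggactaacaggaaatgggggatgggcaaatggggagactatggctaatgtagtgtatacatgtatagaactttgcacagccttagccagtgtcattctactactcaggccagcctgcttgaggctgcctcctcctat
Mlkl, chr8:111338156-111338455, minus strand: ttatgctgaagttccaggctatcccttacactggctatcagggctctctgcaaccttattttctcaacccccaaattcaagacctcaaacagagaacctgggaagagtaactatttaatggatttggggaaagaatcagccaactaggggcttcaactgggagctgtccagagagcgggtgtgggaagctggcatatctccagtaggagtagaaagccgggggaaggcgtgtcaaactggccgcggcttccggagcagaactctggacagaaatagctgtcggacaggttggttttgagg
Birc3, chr9:7873121-7873420, minus strand: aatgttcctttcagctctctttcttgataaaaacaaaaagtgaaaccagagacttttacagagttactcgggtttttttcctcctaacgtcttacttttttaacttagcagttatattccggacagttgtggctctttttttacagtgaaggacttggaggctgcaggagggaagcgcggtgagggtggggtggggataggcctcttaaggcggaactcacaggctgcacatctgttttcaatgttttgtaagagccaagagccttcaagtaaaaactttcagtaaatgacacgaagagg
Ripk1, downstream of its 2 windows, chr13:34002624-34002923, plus strand: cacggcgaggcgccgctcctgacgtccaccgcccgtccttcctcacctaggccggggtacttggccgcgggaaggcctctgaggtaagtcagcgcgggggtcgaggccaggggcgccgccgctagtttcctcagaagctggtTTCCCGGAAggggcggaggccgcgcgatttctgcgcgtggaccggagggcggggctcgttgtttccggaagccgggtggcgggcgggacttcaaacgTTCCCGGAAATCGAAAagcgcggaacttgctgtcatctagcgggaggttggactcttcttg

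The ISRE letters were in 2 of the 12 windows, against 3.44% of all 32851 mouse windows of this length. In Cflar the match, TTTCGGTTTC, was read on the reverse strand at bases 7 to 16 after the start (chr1:58711497-58711506). In the downstream Ripk1 window the match, GAAATCGAAA, ran from base -5 to base 5. The gamma-activated letters were in 1 of the 12 windows, a share close to the 8.30% of all windows. This was the same Ripk1 window, with matches at bases -108 to -100 and -11 to -3, the latter sharing letters with the ISRE match. AP-1 letters (TGANTCA, 7.81% of all windows) and the NF-κB site (4.51%) were found in 0 of the 12. A match of letters is a description of the sequence and not a measured binding site.

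**Figure D1:**
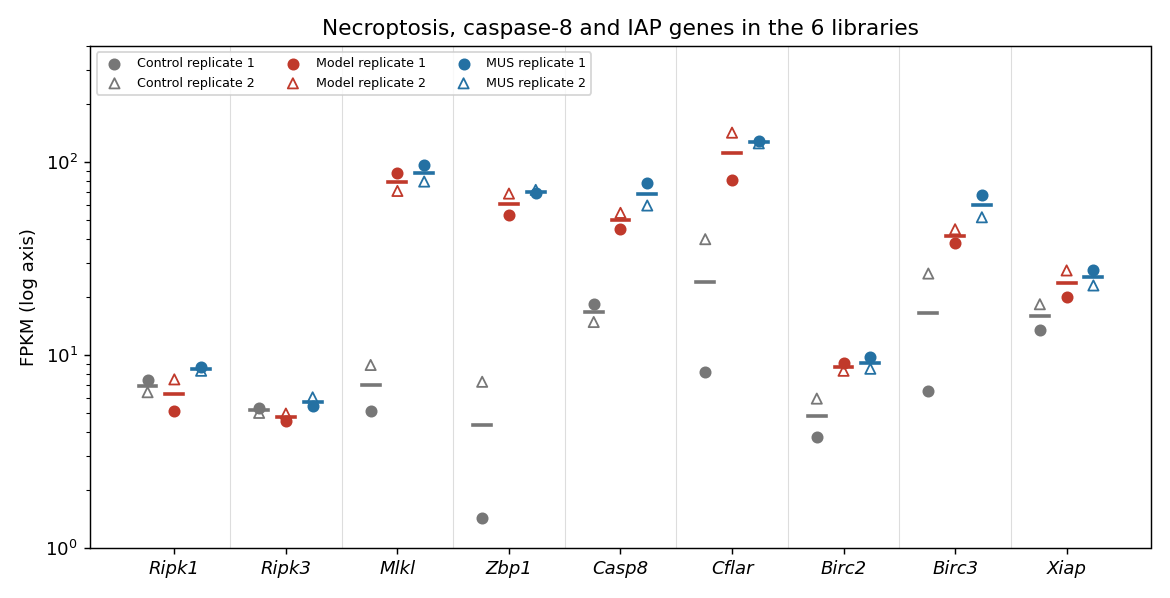
Level of each gene (FPKM, log axis) in the 6 libraries, with circles for replicate 1, triangles for replicate 2 and a bar for the group mean. Mlkl, Zbp1, Casp8 and Cflar sit higher in Model and MUS than in Control, Ripk1 and Ripk3 stay between 4.54 and 8.69 FPKM in all 6 libraries, and the Control libraries of Zbp1, Cflar and Birc3 lie far apart.

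The first comparison asked how LPS and ATP changed the machinery. Mlkl, Zbp1, Casp8 and Cflar were higher in Model than in Control, by 3.0-fold (Casp8) to 14.0-fold (Zbp1) in the ratio of mean FPKM, whereas the kinases Ripk1 and Ripk3 were within 0.13 of Control on the log2 scale and not called. The FPKM scale was 1.45 and 1.34 times the fragments on genes in Control and 0.909 and 0.998 times in Model. FPKM ratios are therefore larger than ratios scaled to those fragments. Scaled in that way, the log2 differences were 3.35 (Zbp1), 2.87 (Mlkl), 1.97 (Cflar, not called) and 1.01 (Casp8), beside a median of -0.42 over all genes. Genes were called at an adjusted p of at most 0.05 (limma, Benjamini-Hochberg over all genes tested) with a difference in log2(FPKM + 1) over 1. With 4 of the 9 called, all higher, the share of all genes called higher was 9.50%. The count was 3 without Control replicate 1, 6 without Control replicate 2 and 2 without Model replicate 2, and the share of all genes called higher moved with it, to 5.45%, 12.6% and 7.85%. The median difference of the 9 was 1.53, beside 0.04 over all genes tested.

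Mlkl, the executioner of the pathway, had 5.09 and 8.86 FPKM in Control, 87.4 and 70.8 in Model, with 96.9 and 79.2 in MUS. All 4 stimulated libraries lay far above both Control libraries, and the Model and MUS ranges overlapped. Its mean rose from 6.98 ± 2.67 in Control (SD, n = 2) to 79.1 ± 11.7 in Model (SD, n = 2), a ratio of 11.3. The difference was 3.36 ± 0.33 in log2(FPKM + 1) (SE; 95% interval 2.58 to 4.14; limma adjusted p = 0.00215). Among the genes tested, Mlkl moved from the 58.2 percentile of level in Control to the 93.1 percentile in Model. It was the only one of the 9 called in both comparisons with Control under all 14 processing alternatives, with 2.87 to 3.71 in Model vs. Control.

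Zbp1, the interferon-inducible nucleic acid sensor, had 1.43 and 7.25 FPKM in Control, 53.0 and 68.6 in Model, with 68.8 and 71.7 in MUS. The stimulated libraries did not overlap Control, although the Control libraries differed from each other 5.08-fold. The Model vs. Control difference was 3.78 ± 0.54 (SE; 95% interval 2.51 to 5.04; limma adjusted p = 0.00631). Without Control replicate 1 it was 2.89, and without Control replicate 2 it was 4.66, and it was called in both cases. It was called in 13 of 14 alternatives, and not without the filter on low values (limma adjusted p = 0.0715).

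On the deposited FPKM scale, the levels of the upstream kinases in Model were close to those in Control. Ripk1 had 7.40 and 6.40 FPKM in Control, 5.11 and 7.46 in Model, with 8.69 and 8.27 in MUS, so Control and Model overlapped. Ripk3 had 5.30 and 5.00 FPKM in Control, 4.54 and 4.96 in Model, with 5.43 and 6.02 in MUS. The whole range of Ripk3 over the 6 libraries was narrow, and both Model libraries lay just below both Control libraries. Model vs. Control differences were -0.13 (95% interval -0.70 to 0.43; limma adjusted p = 0.725) for Ripk1 and -0.10 (-0.56 to 0.37; limma adjusted p = 0.754) for Ripk3. These intervals leave out a change of 2-fold in either direction on this scale. With voom, a scaling that moved the median of all genes to -0.50, the differences were -0.70 for Ripk1 and -0.66 for Ripk3, and they were not called. Scaled to the fragments on genes they were -0.62 and -0.57, beside a median of -0.42, and not called. In recovered fragments both Model libraries lay below both Control libraries for each of these genes. The share of all genes for which this held was not counted. Ripk1 had 1412 and 1221 in Control, then 602 and 965 in Model, and Ripk3 had 278 and 262, then 147 and 176. The level of Mlkl per Ripk3 was 0.959 and 1.77 in Control, 19.2 and 14.3 in Model, with 17.9 and 13.2 in MUS, whereas Ripk3 per Ripk1 stayed between 0.624 and 0.889 in all 6 libraries.

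Casp8, the protease that restrains RIPK1 and RIPK3, had 18.4 and 14.8 FPKM in Control, 45.2 and 54.5 in Model, with 77.8 and 59.5 in MUS. The 3 groups did not overlap, and the order was Control, Model, MUS. The Model vs. Control difference was 1.53 ± 0.29 (SE; 95% interval 0.85 to 2.21; limma adjusted p = 0.0154), a ratio of means of 3.0. Its size depended on the scaling. Scaled to the fragments on genes it was 1.01 and with voom 1.04, both called, beside medians of -0.42 and -0.50 over all genes. Under quantile normalization it was 1.07 and not called (limma adjusted p = 0.0585), beside a median of -0.06. Without Model replicate 2 the difference was 1.40 and no longer called (limma adjusted p = 0.0514), and it was called in 11 of 14 alternatives.

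Cflar, whose c-FLIP product pairs with caspase-8, had 8.13 and 39.8 FPKM in Control, 80.7 and 142 in Model, with 129 and 125 in MUS. Both Model libraries were above both Control libraries, but the Control libraries differed 4.89-fold and the Model libraries 1.76-fold. The difference was 2.49 ± 0.67 (SE; 95% interval 0.90 to 4.07) and passed the threshold narrowly (limma adjusted p = 0.0459). Without Control replicate 1 it was 1.41 and not called (limma adjusted p = 0.0979), without Control replicate 2 it was 3.57 and called (limma adjusted p = 0.00260). The call was kept in 4 of 14 alternatives, and the limma adjusted p over the 14 ranged from 0.00260 to 0.216. Leaving out either Model or either MUS replicate also ended it, with differences of 2.08 to 2.89.

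The balance of the neighbouring pair followed the same libraries. Cflar per Casp8 was 0.441 and 2.68 in Control, 1.78 and 2.61 in Model, with 1.65 and 2.10 in MUS. In FPKM, Control replicate 1 alone had less Cflar than Casp8, and the ratio in Control replicate 2 was above that of all 4 stimulated libraries. A ratio between genes rests on the deposited gene lengths, 12669 bases for Cflar and 2893 for Casp8. In fragments, Control replicate 1 had 2354 for Cflar and 1219 for Casp8. The ratios of the groups therefore overlapped.

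Of the IAP genes, 0 of 3 were called in Model vs. Control, beside 9.50% of all genes called higher. Birc3, which encodes cIAP2, had 6.52 and 26.4 FPKM in Control, 38.0 and 44.8 in Model, with 67.3 and 51.7 in MUS. Birc2, which encodes cIAP1, had 3.75 and 5.93 in Control, 9.03 and 8.27 in Model, with 9.74 and 8.47 in MUS. Xiap had 13.4 and 18.3 in Control, 20.0 and 27.4 in Model, with 27.7 and 22.9 in MUS. For all 3, both Model libraries were above both Control libraries on the deposited FPKM scale, beside 32.6% of all genes tested. In recovered fragments the groups overlapped for Birc3 (747 and 3026 in Control, 2686 and 3475 in Model), for Birc2 (393 and 621, then 584 and 587) and for Xiap (2909 and 3963, then 2671 and 4019). The differences were 1.56 (95% interval 0.22 to 2.89; limma adjusted p = 0.104) for Birc3, 0.75 (0.15 to 1.35; limma adjusted p = 0.0850) for Birc2 and 0.55 (-0.14 to 1.23; limma adjusted p = 0.229) for Xiap. Scaled to the fragments on genes they were 1.05 for Birc3, 0.28 for Birc2 and 0.03 for Xiap, beside a median of -0.42 over all genes, and none was called. Without Control replicate 2, Birc3 (2.49, limma adjusted p = 0.00366) and Birc2 (1.02, limma adjusted p = 0.0424) were called. Birc3 per Birc2 was 1.74 and 4.46 in Control, 4.21 and 5.41 in Model, with 6.91 and 6.11 in MUS.

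On the deposited scale, 7 of the 9 genes had both Model libraries above both Control libraries, beside 32.6% of all genes tested. For 1, Ripk3, both were below, a share that was not counted over all genes. In Model the order of mean level was Cflar, Mlkl, Zbp1, Casp8, Birc3, Xiap, Birc2, Ripk1 and Ripk3, in which Cflar and Mlkl overlapped and Zbp1 and Casp8 overlapped. In Control, the 4 genes with the highest means, Cflar, Casp8, Birc3 and Xiap, overlapped each with the next of the 4, and Zbp1 had the lowest mean. Mlkl was level with Ripk1 there, at 6.98 and 6.90 FPKM. Such orders between genes rest on the deposited gene lengths, 2303 bases for Mlkl and 8344 for Ripk1.

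The second comparison asked whether muscone, given late in priming, changed these levels. By limma, 0 of the 9 genes were called in MUS vs. Model, 0 had an unadjusted p under 0.05, and 0 were called by voom. Over all 9794 genes 0 were called (0%), beside 825 with an unadjusted p under 0.05. The paper used a different test, DESeq2, and did report genes that differed between these groups, most of them lower with muscone. Over all genes, 19 were called higher and 12 lower without Model replicate 2, 5 and 2 with only the groups compared, and 2 and 2 with the replicate block, and 0 of the 9 genes were among them. All 9 differences were above 0, from 0.06 (Birc2) to 0.51 (Birc3), with a median of 0.22 beside 0.01 over all genes, of which 51.3% were above 0. Adjusted p from limma ranged from 0.727 to 0.970. The signs of 3 genes were not kept when 1 library was left out, for Cflar (-0.16) and Xiap (-0.12) without Model replicate 1, and for Birc2 and Xiap (both -0.03) without MUS replicate 1.

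The 5 genes Ripk1, Ripk3, Zbp1, Casp8 and Birc3 had both MUS libraries above both Model libraries, which 21.2% of all genes tested did. Casp8 differed by 0.45 (95% interval -0.24 to 1.13) and Ripk1 by 0.40 (-0.17 to 0.96). Ripk3 differed by 0.22 (-0.24 to 0.69) and Mlkl by 0.15 (-0.62 to 0.93). These intervals leave out a fall of 2-fold and, for Ripk1, Ripk3 and Mlkl, also a rise of 2-fold on the log2(FPKM + 1) scale. They were wider for Birc3 (-0.83 to 1.84), Zbp1 (-1.05 to 1.48) and Cflar (-1.34 to 1.82), and those of Zbp1 and Cflar take in a 2-fold change in either direction. The differences were 0.06 (-0.53 to 0.66) for Birc2 and 0.10 (-0.58 to 0.79) for Xiap.

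**Figure D2:**
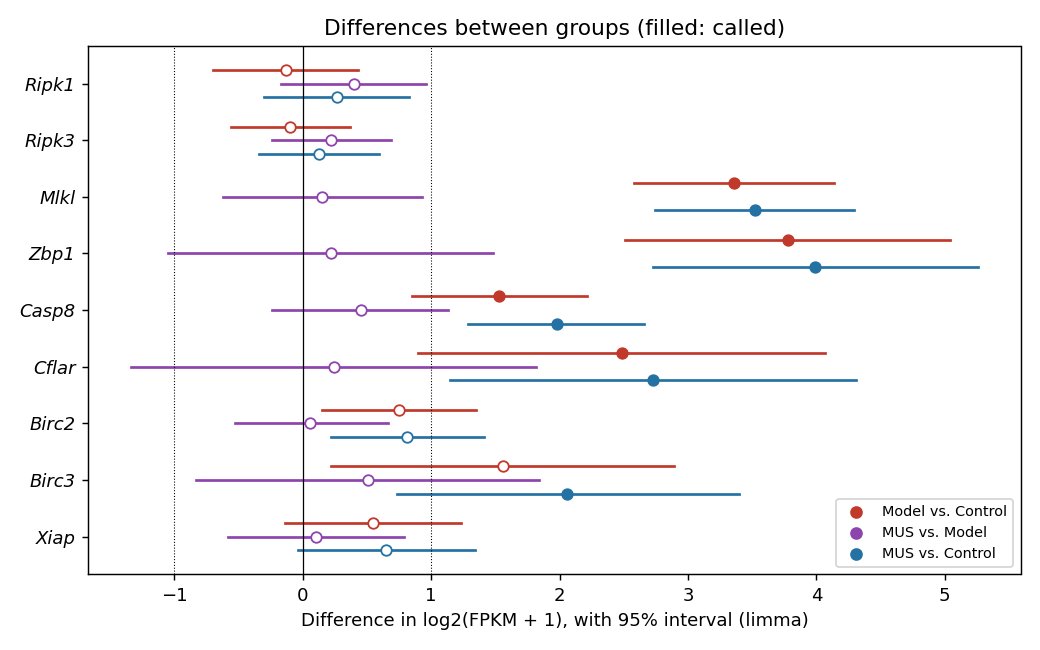
Difference in log2(FPKM + 1) between groups for each gene, with 95% intervals from limma; filled points were called and dotted lines mark a difference of 1 in either direction. All 9 intervals of MUS vs. Model include 0, while Mlkl, Zbp1, Casp8 and Cflar are called in both comparisons with Control and Birc3 only in MUS vs. Control.

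The third comparison, MUS vs. Control, shares its Control libraries with the first, so the values stand side by side and are not independent of each other. In MUS, 5 of the 9 genes were called, all higher, beside 11.3% of all genes tested called higher. The count was 3 without Control replicate 1, 6 without Control replicate 2 and 1 without MUS replicate 1, where the share of all genes was 6.89%, 13.8% and 1.59%. Mlkl differed by 3.52 (limma adjusted p = 0.00157), Zbp1 by 3.99 (limma adjusted p = 0.00431), Casp8 by 1.98 (limma adjusted p = 0.00548), Cflar by 2.73 (limma adjusted p = 0.0278) and Birc3 by 2.06 (limma adjusted p = 0.0391). Birc2 (0.81, limma adjusted p = 0.0555), Xiap (0.65, limma adjusted p = 0.143), Ripk1 (0.27, limma adjusted p = 0.443) and Ripk3 (0.13, limma adjusted p = 0.660) were not called.

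On the deposited scale all 9 genes had both MUS libraries above both Control libraries, beside 39.6% of all genes tested. Birc3 was called here and not in Model vs. Control, but its difference between MUS and Model, the test of that contrast, was 0.51 with a limma adjusted p of 0.871. The call of Birc3 was lost in 9 of 14 alternatives, among them leaving out Control replicate 1 (1.13, limma adjusted p = 0.0725). Without MUS replicate 1 only Mlkl remained called, and Zbp1 (4.02, limma adjusted p = 0.0540) and Casp8 (1.79, limma adjusted p = 0.080) were then just outside the threshold. The small positive values of Ripk1 and Ripk3 became -0.21 and -0.33 when FPKM were rescaled to the fragments on genes, a scaling that moved the median of all genes to -0.41. Relative to that median they remained above it.

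The spread between libraries of a group was widest in Control. Control replicate 2 was higher than Control replicate 1 for 6 of the 9 genes, and over 2-fold higher for Zbp1, Cflar and Birc3 (4.05-fold). In Model the largest gap of the 9 was 1.76-fold, and in MUS 1.31-fold. Over all genes tested, 53.2% were higher in Control replicate 2, whereas among the 930 genes called higher in Model 85.9% were. Tnf had 8.62 and 183 FPKM in the Control libraries, Cd14 125 and 406, and Nlrp3 7.20 and 52.5, values chosen after they were seen. Their part in the results, beyond the values without each Control library, was not tested.

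**Figure D3:**
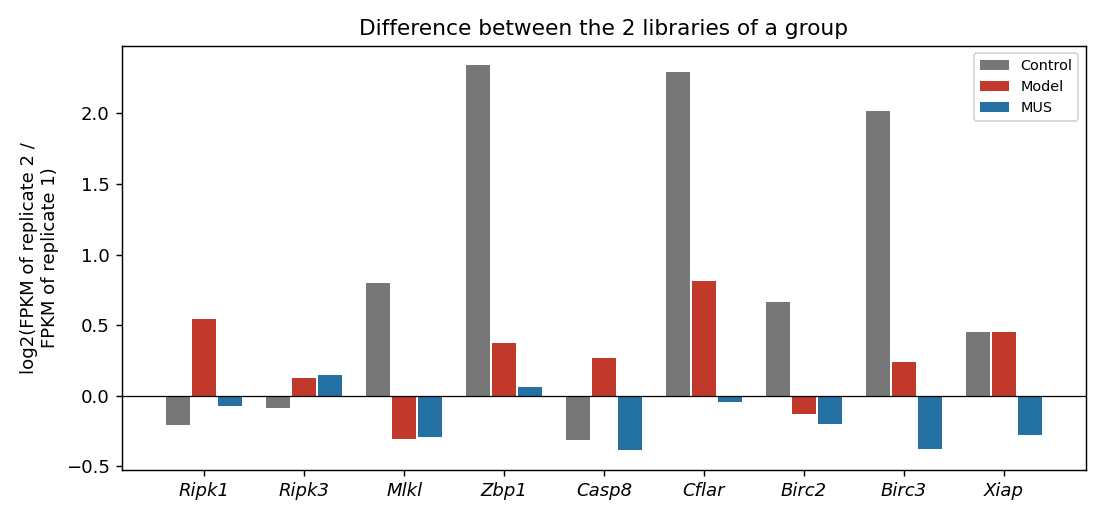
Difference between the libraries of each group, as log2 of the FPKM of replicate 2 over replicate 1, for the 9 genes. The Control bars of Zbp1, Cflar and Birc3 exceed 2, that is over 4-fold, while all Model and MUS bars stay within 1 in either direction.

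The 83 genes on 7 lists around these 9 (receptor complexes, interferon route, caspases, other IAP-related genes, MLKL partners and pyroptosis) included 78 that were tested. In Model vs. Control 28 were called higher and 1 lower, with a median of 0.83, beside 9.50% of all genes called higher and a median of 0.04. In MUS vs. Model limma and voom each called 0, and the median was 0.02. In MUS vs. Control 30 were called higher, beside 11.3% of all genes, and 4 lower. Of the 28, 24 (85.7%) were higher in Control replicate 2 than in replicate 1, close to the 85.9% of all 930 genes called higher in Model. Without Control replicate 1 fewer of the listed genes were called higher in Model, and without Control replicate 2 more were. Most of these calls were lost without Model replicate 1, and in MUS vs. Control most were lost without either MUS replicate. The share of all genes tested that were called higher moved in the same direction each time.

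In the TNF receptor complex and its ubiquitin machinery, 9 of 24 genes were called higher in Model and 0 lower. Tnf itself rose by 4.89 (limma adjusted p = 0.0330; called in 7 of 14 alternatives), from 8.62 and 183 FPKM in Control to 1510 and 1034 in Model. Tnfaip3, which encodes the ubiquitin-editing enzyme A20, rose by 3.29 (limma adjusted p = 0.0120), and Traf1, an adaptor that binds cIAPs, by 3.23 (limma adjusted p = 0.0244). The median of this list was 1.15 in Model vs. Control and -0.20 in MUS vs. Model. Tradd, the adaptor between the TNF receptor and RIPK1, had 7.22 and 8.22 FPKM in Control, 10.2 and 7.54 in Model, with 3.23 and 3.0 in MUS. Both MUS libraries lay below the other 4. Tradd was called lower in MUS vs. Control (-1.08, limma adjusted p = 0.0163), and its MUS vs. Model difference of -1.25 had the smallest adjusted p of the 78 genes, 0.273 by limma, and was not called.

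On the Toll-like receptor route to RIPK3, 3 of 7 genes were called higher in Model. These were the sensor Tlr3 (3.22, limma adjusted p = 0.00157) and the LPS co-receptors Cd14 (2.64, limma adjusted p = 0.0258) and Ly96 (1.13, limma adjusted p = 0.0366). Tlr3 had 1.70 and 2.87 FPKM in Control and 29.5 and 28.8 in Model, and was called under all 14 alternatives, whereas Cd14 was called under 6 and Ly96 under 4. On the interferon route to Zbp1, 7 of 13 genes were called higher, among them the transcription factors Irf7 (4.68, limma adjusted p = 0.00157) and Stat2 (3.12, limma adjusted p = 0.0129). Irf7 went from 3.08 and 8.07 FPKM in Control to 152 and 157 in Model and 230 and 238 in MUS. In MUS vs. Control 8 of the 13 were called higher, and the 3 largest were Irf7 (5.27), Eif2ak2 (3.42), which encodes the kinase PKR, and Stat2 (3.30).

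In the caspase cascade, 3 of 8 genes tested were called higher in Model and 1 lower. Cycs, which encodes cytochrome c, rose by 1.07 (limma adjusted p = 0.0324). Casp9, the initiator of the mitochondrial pathway, fell by 1.06 on the log2 scale (limma adjusted p = 0.0341), from 6.71 and 6.01 FPKM to 2.09 and 3.02. In MUS vs. Control Casp9 fell by 1.5 (limma adjusted p = 0.00918). In Model vs. Control, both Cycs and Casp9 were called under 5 of 14 alternatives.

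Among other BIR-domain proteins and IAP antagonists, 1 of 7 genes tested was called higher in Model, 1 gene against a background of 9.50%. This was Xaf1, an interferon-inducible XIAP-binding protein, with 1.5 and 7.23 FPKM in Control, 65.0 and 55.3 in Model, with 68.6 and 63.2 in MUS (3.75, limma adjusted p = 0.00594). The Control libraries of Xaf1 stood apart as those of Zbp1 did. Htra2, a mitochondrial protease that antagonises IAPs, was called lower in MUS vs. Control (-1.01, limma adjusted p = 0.0183). Birc5, Naip1 and Septin4 of this list were below the FPKM filter, as were Dffb and Gsdme of others.

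Around MLKL, 1 of 13 genes for chaperones, phosphatases and membrane repair was called higher in Model, a share close to the 9.50% of all genes. It was Chmp4b (1.48, limma adjusted p = 0.0373), a subunit of the ESCRT-III membrane repair machinery, called in 4 of 14 alternatives. Ninj1, which encodes the protein that ruptures the plasma membrane in lytic death, had 167 and 185 FPKM in Control, 97.7 and 73.5 in Model, with 40.4 and 56.7 in MUS. It was called lower in MUS vs. Control (-1.85, limma adjusted p = 0.00944) and in neither of the other comparisons. Of the pyroptosis partners, 4 of 7 tested were called higher in Model. They were Nlrp3 (3.15, limma adjusted p = 0.0351), Casp4 (3.03, limma adjusted p = 0.0121), Casp1 (2.62, limma adjusted p = 0.00878) and Gsdmd (1.90, limma adjusted p = 0.0139), which encode the inflammasome sensor, the inflammatory caspases and the pore-forming substrate of the latter. Nlrp3 was called in 7 of 14 alternatives and the other 3 in 11 or 12. In MUS vs. Control 5 of 7 were called higher, with Nlrp3 at 3.79, Casp4 at 3.13 and Casp1 at 2.63 the largest.

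**Figure D4:**
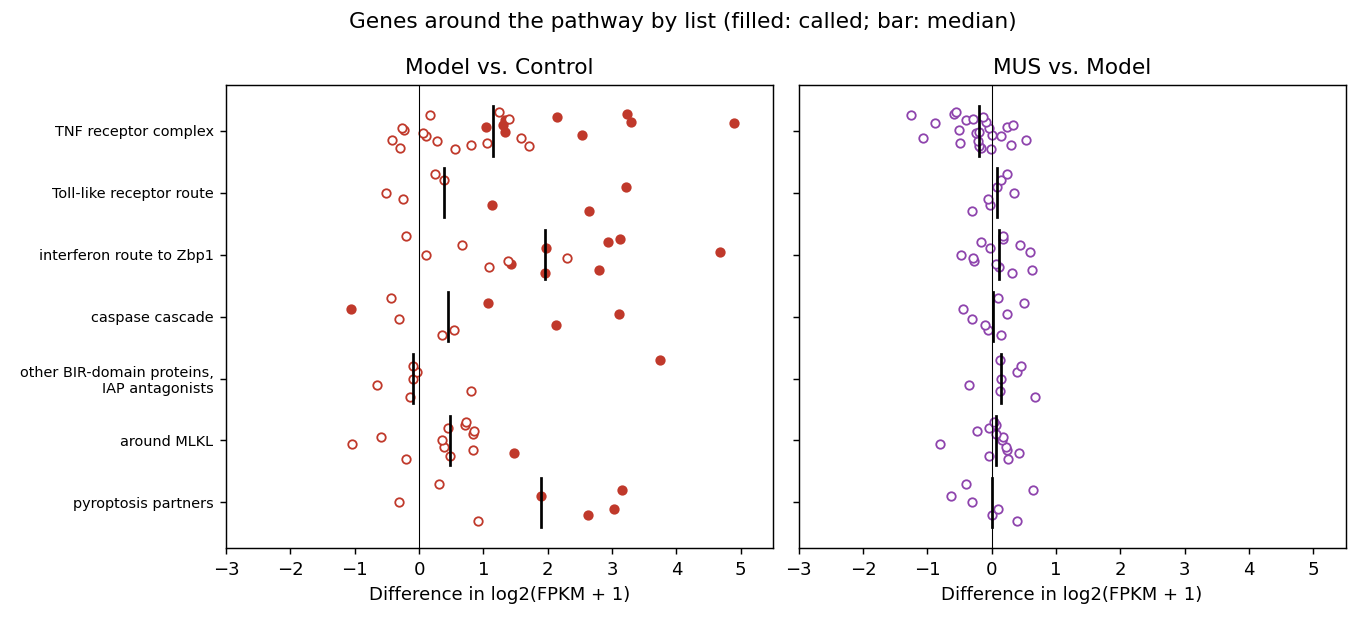
Difference in log2(FPKM + 1) of each tested gene on the 7 lists, in Model vs. Control and in MUS vs. Model, with filled points for called genes and a bar for the list median. Called genes are seen only in Model vs. Control, and the list medians in MUS vs. Model lie between -0.20 and 0.14.

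Within the 9 genes, log2(FPKM + 1) over the 6 libraries went together for Ripk1 and Ripk3 (Pearson r = 0.84), and for Mlkl and Zbp1 (r = 0.98), while Ripk3 and Mlkl had r = 0.04. These are descriptions over 6 libraries that share the contrast between Control and stimulated cells, and each library shares 1 scale over all genes. For Zbp1, 793 genes had r above 0.95, and the 3 most like it were Rffl, Irgm2 and Mx1. Mx1, an interferon-induced antiviral GTPase, had 0.716 and 15.9 FPKM in Control and 384 to 664 in the stimulated libraries. For Ripk3 only 6 genes had r above 0.95, with Drg2, Col6a1 and Acly the most alike. Casp8 was most like Slc25a28, Ak3 and Brip1os (313 genes above 0.95), and Birc3 most like Mapk6, St7 and Gna13 (332 genes). These likenesses describe 6 values per gene and say nothing about function.

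**Figure D5:**
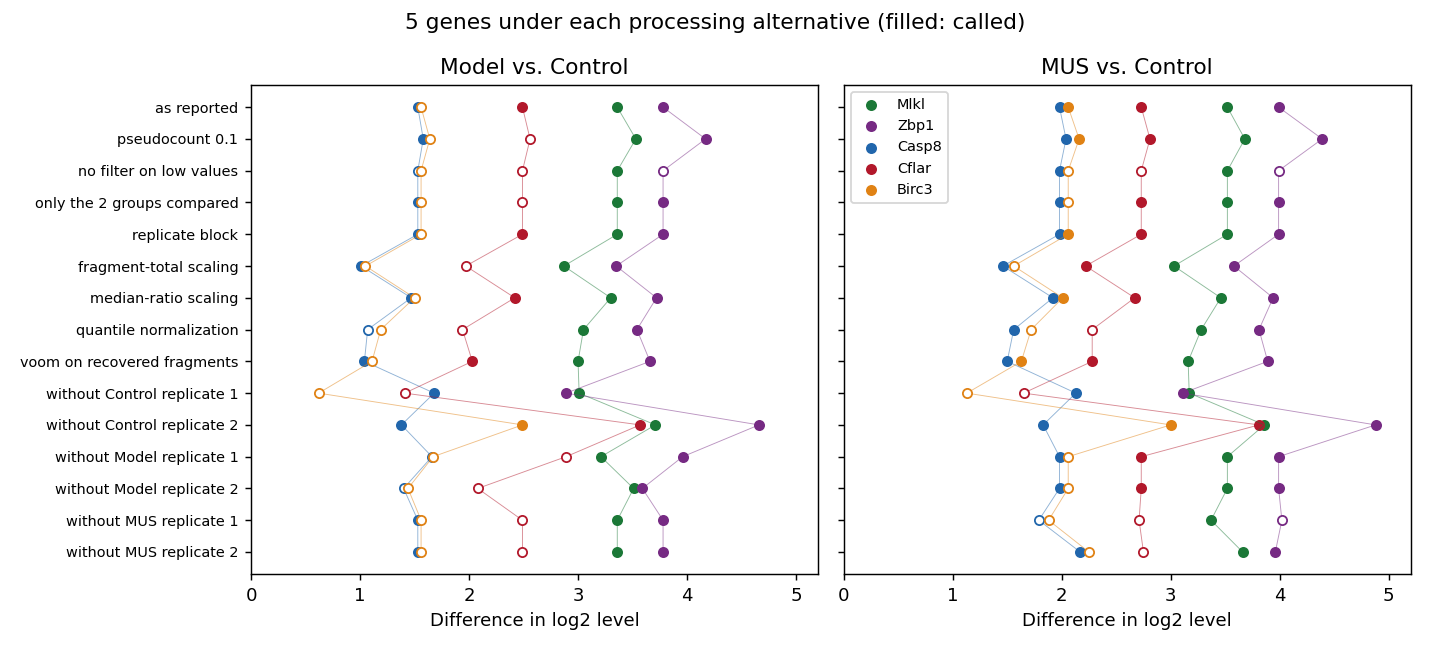
Difference in log2 level of 5 genes under each processing alternative, for Model vs. Control and MUS vs. Control; filled points were called. Mlkl is called in every row, while Cflar ranges from 1.41 to 3.57 and Birc3 from 0.62 to 2.49 in Model vs. Control, with the extremes where a Control library is left out.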

How the data were processed

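RNA of peritoneal macrophages was sequenced in 3 groups with 2 libraries each, grouped by the sample labels. The authors deposited 1 table of FPKM per gene and library. The paper's methods name RSEM, whereas the submitters' processing notes name HISAT2, featureCounts 1.5.0-p3 and GRCm39, and 98.3% of 54409 gene positions shared with GENCODE M21 are those of GRCm38. FPKM times gene length gave whole fragments (tolerance 0.1, 100.0% of values), but the scale was 1.45 and 1.34 times the fragments on genes in Control and 0.909 to 0.998 times elsewhere. 0 value columns had no sample. Promoter windows came from RefSeq.

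Values were tested with limma 3.58.1 in R 4.3.3 (lmFit, contrasts.fit, eBayes with trend, two-sided) on log2(FPKM + 1) of 9794 genes (mean FPKM at least 1), all 6 libraries in 1 model (residual degrees of freedom 3, prior 4.04). The pseudocount of 1 understates changes of low genes. Benjamini-Hochberg adjustment ran over all genes tested. For a single gene, an exact permutation test of 2 libraries against 2 could not go below p = 0.333. The fit was tested on simulated data.

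The replicate number is the batch in the labels. The replicate differences correlated over genes at 0.12 (Control and Model), 0.14 (Model and MUS) and -0.09 (Control and MUS), and the replicate block was an alternative. Others were the pseudocount 0.1, no filter, only the groups compared, 3 other scalings, voom on the recovered fragments, and each library left out; the effect on the pathway lists was added after seeing the data. The 9 genes, the lists and the tests were chosen with earlier results of these data known. Named genes were the 9, the 3 largest called increases and decreases per list, the 3 most alike by Pearson r, and overlapping genes. Gsdmd and Tradd (MUS vs. Model) and the Control values of Tnf, Cd14 and Nlrp3 were added after seeing them. The results for some listed genes are not reported here.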

Additional observations from a re-analysis of the deposited data

How the results depend on the processing

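The count of the 9 genes called in Model vs. Control, 4 as reported, was 1 without the filter on low values, 2 under quantile normalization and 2 to 6 when 1 library was left out, lowest without Model replicate 2 and highest without Control replicate 2. In MUS vs. Control it was 2, 3 and 1 to 6 in place of 5, with 1 without MUS replicate 1 and 3 without Control replicate 1 or MUS replicate 2. MUS vs. Model gave 0 under all 14 alternatives. With the replicate block the counts were 4, 0 and 5, and it changed no call of the 9 genes. Without the filter, 30192 genes were tested and the variance prior was refitted on them. The share of all genes called higher then fell from 9.50% to 0.755% in Model vs. Control and from 11.3% to 1.11% in MUS vs. Control. Under quantile normalization these shares were 7.22% and 9.04%. The cause of these moves was not tested.

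Of 126 values of single genes per comparison, 109, 122 and 104 kept direction and side of the threshold in Model vs. Control, MUS vs. Model and MUS vs. Control. With 1 library left out, direction was lost for Ripk1 in Model vs. Control (-0.37 to 0.10, above 0 without Model replicate 1), and in MUS vs. Model for Cflar (-0.16 to 0.65) and Xiap (-0.12 to 0.32) without Model replicate 1 and for Birc2 (-0.03 to 0.15) and Xiap (-0.03) without MUS replicate 1. In MUS vs. Control, Ripk1 was -0.21 and -0.24 and Ripk3 -0.33 and -0.39 under fragment-total scaling and voom. These scalings moved the median of all genes in Model vs. Control to -0.42 and -0.50, and the split of calls from 930 higher and 545 lower to 647 and 1633, and 684 and 2050. Quantile normalization gave 707 and 715. With 1 library left out, the lone library is assumed to vary like the other groups.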
